A study of Homo sapiens with 6 samples.

Results

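The proteasome genes described here are the protein-coding genes whose symbol starts with PSMA to PSMG followed by a number, leaving out the interferon-induced core subunits PSMB8 and PSMB9. Of the 58174 genes in each deposited table, 48 matched. PSMC3IP, a recombination cofactor, and PSME3IP1, a partner of the activator PSME3, match the symbol but were not counted as proteasome genes, so 46 remained. They comprise 17 genes of the core particle (PSMA and PSMB), 20 genes of the regulatory particle (PSMC and PSMD, of which PSMD5, PSMD9 and PSMD10 encode assembly chaperones that leave before the particle is complete) and 9 genes of activators, the inhibitor PSMF1 and core assembly chaperones.

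Libraries were made from LN-229, an established human glioblastoma cell line. In 3 libraries the cells carried the label sh-JMJD1C, which usually stands for a short hairpin RNA that lowers JMJD1C, a member of the JmjC family of histone demethylases, and in the other 3 they were labelled control-NC. In both groups the design text states enrichment for nuclear RNA and removal of ribosomal RNA before sequencing, and the stated purpose was to find target genes of JMJD1C. The labels give no hairpin sequence, no time after treatment and no word on separate cultures or clones, so the p-values below measure the spread between these libraries, which may be technical.

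The proteasome degrades proteins tagged with ubiquitin. Its core particle is a barrel in which rings of alpha subunits (PSMA) gate the entrance and rings of beta subunits (PSMB) carry the proteolytic sites, and its regulatory particle holds a base with a ring of ATPases (PSMC) that unfolds substrates and a lid (most PSMD) that removes ubiquitin. In mammalian cells the subunit genes are known to be induced together by the transcription factor NFE2L1 when proteasome capacity is short.

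JMJD1C itself was measured first. Its scaled FPKM was 1.03, 0.251 and 0.657 in sh-JMJD1C libraries 1 to 3, against 3.97, 2.25 and 4.28 in control-NC libraries 1 to 3. All sh-JMJD1C libraries lay below all control-NC libraries, and the mean of 0.645 ± 0.388 was 18.4% of the control-NC mean of 3.5 ± 1.1 (SD, n = 3 each). The exact two-sided permutation test gave p = 0.10, the smallest that 3 against 3 libraries allows. On FPKM the log2 fold change was -1.82 (SE 0.41), with a limma adjusted p of 0.118, and on whole reads recovered from the FPKM it was -2.49 (SE 0.51), with a limma-voom adjusted p of 0.0253. With the length trend of all genes removed, as described below, it was -1.75 on reads (limma-voom adjusted p = 0.0463). With length and GC trends removed it was -1.20, past the threshold of 0.05 (limma-voom adjusted p = 0.0574).

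Sequencing depth was low and uneven, at 1676755, 1919675 and 1660561 reads in sh-JMJD1C libraries 1 to 3 and 544442, 2004255 and 2960454 reads in control-NC libraries 1 to 3. All 6 listed markers of a glioblastoma line were above 0 in both groups, and their summed scaled FPKM was 244 to 849 in sh-JMJD1C libraries and 116 to 177 in control-NC libraries. Of these, NES and SOX9 were scarce. NES had 20, 3 and 4 reads in sh-JMJD1C libraries 1 to 3 and 2, 2 and 4 in control-NC libraries 1 to 3, too few for the test on reads. SOX9 had 32, 6 and 11 reads in sh-JMJD1C libraries and 4, 20 and 24 in control-NC libraries. VIM and CD44 had log2 fold changes of 0.15 and -0.03 on reads, while S100A6 at 2.30 and LGALS1 at 2.82 were called higher (limma-voom adjusted p of 0.0412 and 0.02). Markers of other cells were scarce, each list with 3 genes: leukocytes had 0 reads in the sh-JMJD1C libraries and 3 in the control-NC libraries, endothelium 12 in sh-JMJD1C and 2 in control-NC libraries, epithelium 9 in sh-JMJD1C and 26 in control-NC libraries, and neurons 22 in sh-JMJD1C and 49 in control-NC libraries. The libraries also differed in RNA classes. Signal recognition particle RNA genes (RN7SL) took 1.18%, 15.7% and 18.5% of reads in sh-JMJD1C libraries 1 to 3, against 0.378%, 0.59% and 1.77% in control-NC libraries 1 to 3. The nucleus-retained MALAT1 took 0.292%, 0.0915% and 0.185% in sh-JMJD1C libraries and 1.73%, 1.25% and 2.4% in control-NC libraries. Mitochondrial genes took 12.6%, 1.33% and 1.7% in sh-JMJD1C libraries and 7.04%, 8.7% and 2.93% in control-NC libraries. The MALAT1 share was lower in all sh-JMJD1C libraries, whereas the RN7SL and mitochondrial shares of sh-JMJD1C 1 differed from those of sh-JMJD1C 2 and 3, and its RN7SL share lay within the control-NC range. The part of these shares and of the called markers in the results below was not tested.

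Reads of the proteasome genes took a larger share of every sh-JMJD1C library. They made up 0.381% (95% exact Clopper-Pearson interval 0.372 to 0.39), 0.638% (0.627 to 0.649) and 0.653% (0.641 to 0.665) of reads in sh-JMJD1C libraries 1 to 3. In control-NC libraries 1 to 3 the share was 0.197% (0.185 to 0.209), 0.281% and 0.316%. The intervals cover counting error only. Scaled to a common level (scaled RPM, the reads divided by a library's median-ratio factor and total), the genes summed to 6545 ± 2557 in sh-JMJD1C libraries and 2286 ± 4.03 in control-NC libraries (SD, n = 3 each). The 3 control-NC libraries were nearly equal, whereas the sh-JMJD1C libraries ran from 3627 in sh-JMJD1C 1 to 8394 in sh-JMJD1C 2. In bulk RNA a change in the mix of cells and a change in the RNA of each cell cannot be told apart.

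**Figure D1:**
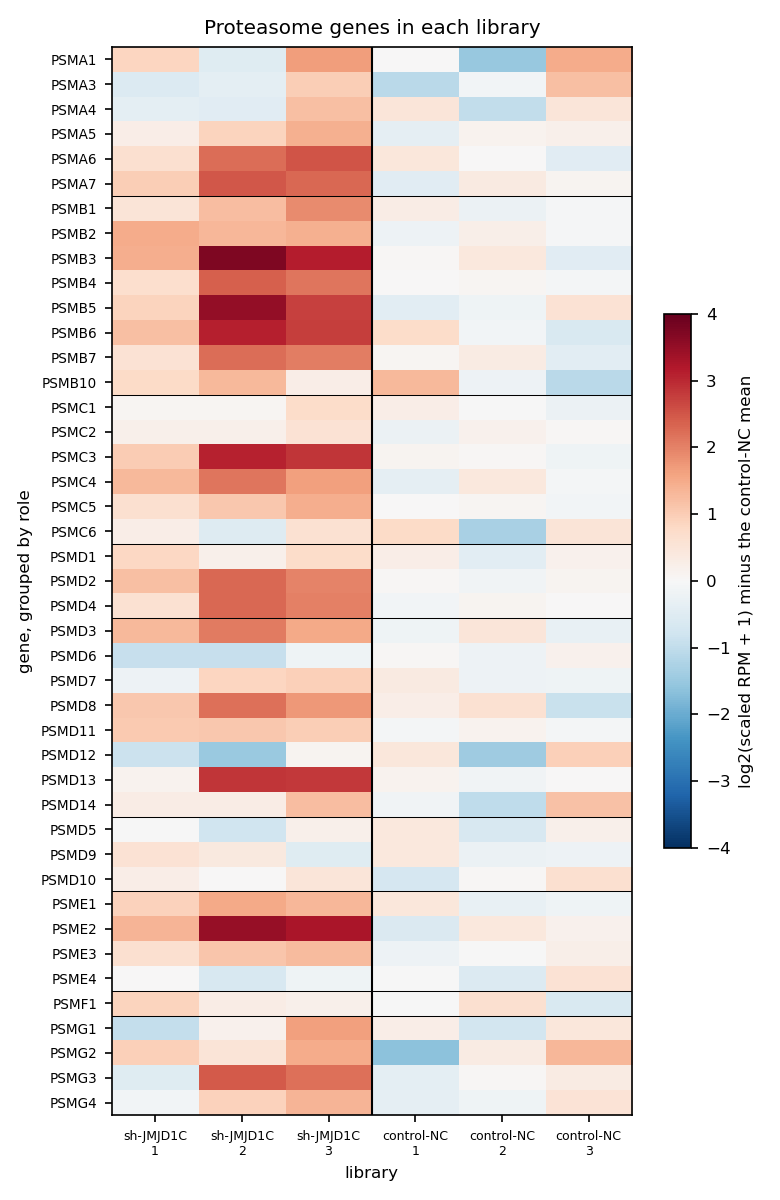
Each row is 1 of the 43 proteasome genes tested and each column 1 library, with the 3 sh-JMJD1C libraries left of the 3 control-NC libraries, and the colour gives log2(scaled RPM + 1) minus the mean of the control-NC libraries. Red cells are densest in sh-JMJD1C 2 and 3 among the beta ring genes, and sh-JMJD1C 1 is paler for most of the genes that are red there.

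By the test on FPKM, no member was called, meaning that none reached an adjusted p under 0.05. Of the 45 members that passed the filter of a mean FPKM of 0.5, 0 were called higher and 0 lower in sh-JMJD1C cells (limma with Benjamini-Hochberg adjustment). Over all 18383 genes tested, 0.0598% were called higher and 0.125% lower. At an unadjusted p under 0.05, 20 members were higher and 0 lower, against 9.82% of all genes higher and 10.1% lower. The smallest adjusted p among the members was 0.115, for PSMD2. When only protein-coding genes were tested, 11 members were called higher, against 5.34% of the genes in that fit. Without sh-JMJD1C 1, 12 members were called higher, against 2.81% of the genes.

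The test on whole reads called 10 proteasome genes higher in sh-JMJD1C cells and 0 lower. They are PSMA7 of the alpha ring, PSMB2, PSMB3, PSMB4 and PSMB6 of the beta ring, the base ATPases PSMC3 and PSMC4, PSMD2 of the base, PSMD3 of the lid and the activator subunit PSME2. Of all 11877 genes with at least 60 reads, 3.71% were called higher and 1.81% lower, beside 10 of the 43 proteasome genes tested. A further 5 genes (PSMB5, PSMB7, PSMD4, PSMD8 and PSME1) had an adjusted p between 0.05 and 0.06. Levels of 22 genes did not overlap between the groups, all of them higher in the sh-JMJD1C libraries, where 17.3% of all genes did not overlap and were higher. The calls depended on single libraries: without control-NC 1, control-NC 3, sh-JMJD1C 2 or sh-JMJD1C 3, each left out alone, 0 of the 10 were called, and 23 members were called higher when sh-JMJD1C 1 was left out, where 14.5% of all genes were. Without control-NC 2, PSMB4 was lost.

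**Figure D2:**
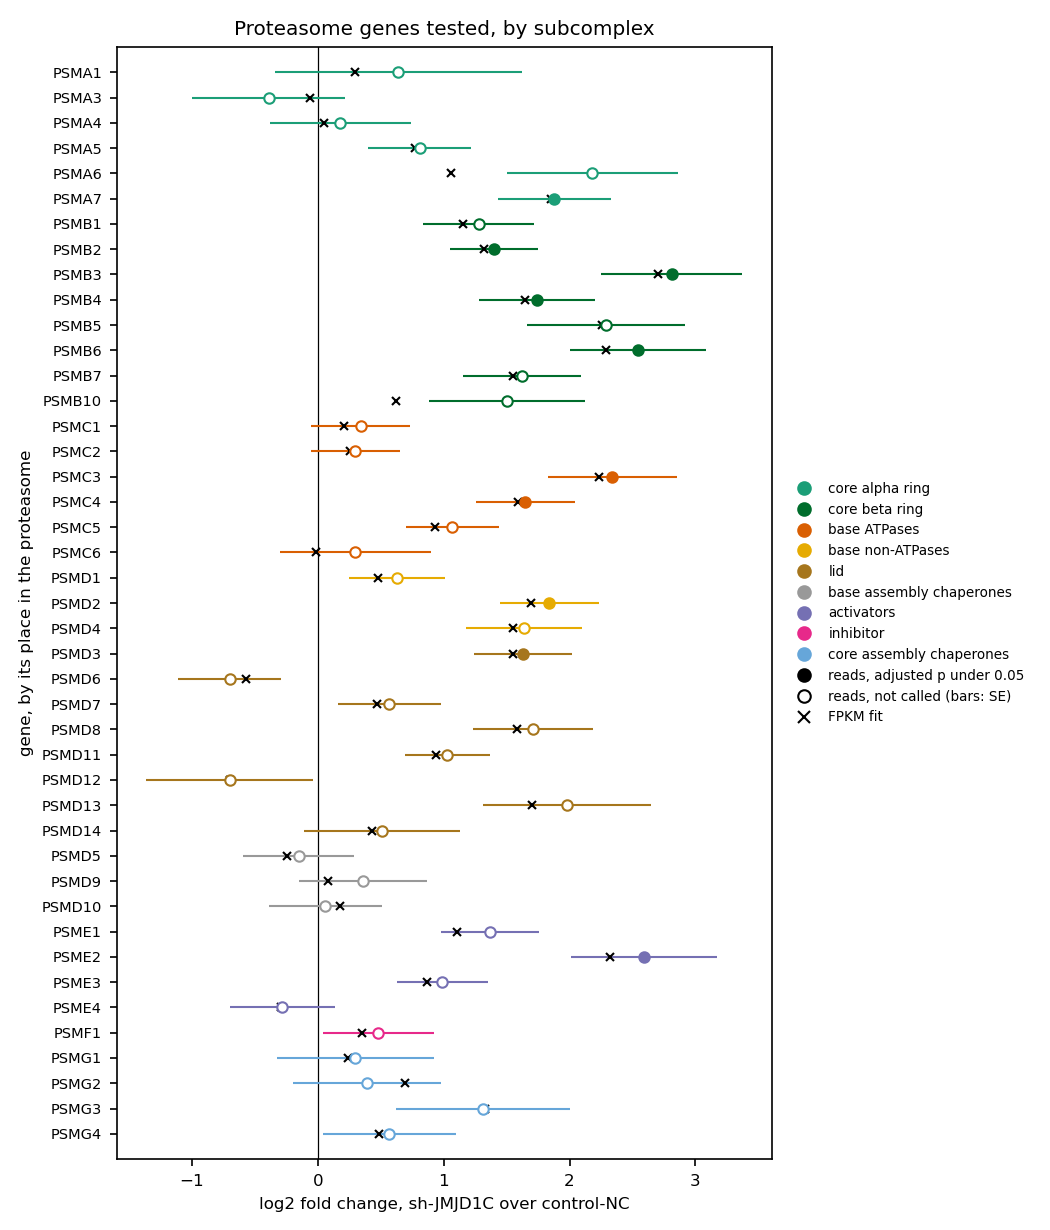
Log2 fold change of sh-JMJD1C over control-NC for the 43 proteasome genes tested, from the top by subcomplex, with circles for whole reads (bars, SE; filled where the adjusted p was under 0.05) and crosses for FPKM. The 10 filled circles lie between 1.40 (PSMB2) and 2.81 (PSMB3), and the lowest values are those of PSMD6 and PSMD12 at -0.70.

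The alpha ring was uneven. Of its 8 genes 6 could be tested, with a median log2 fold change of 0.73 on reads, against -0.08 over all genes tested, and 1 was called. PSMA7, a structural subunit, had 142, 399.7 and 353 scaled RPM in sh-JMJD1C libraries 1 to 3 and 51.2, 90.7 and 76.7 in control-NC libraries 1 to 3. The groups did not overlap, and the log2 fold change was 1.88 (SE 0.45, limma-voom adjusted p = 0.0391). PSMA3, another structural subunit, had 9.65, 11 and 29.5 scaled RPM in sh-JMJD1C libraries, against 6.4, 13.4 and 34.5 in control-NC libraries. Its groups overlapped fully, with a log2 fold change of -0.39 (SE 0.61) on reads. PSMA4 had 40.3, 38.4 and 123 scaled RPM in sh-JMJD1C libraries and 74.6, 26.4 and 74.8 in control-NC libraries, again with overlap.

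PSMA6 had few reads: 13, 36 and 43 reads in sh-JMJD1C libraries 1 to 3, against 3, 11 and 12 in the control-NC libraries. Its scaled levels did not overlap, and the log2 fold change was 2.18 on reads (SE 0.68, limma-voom adjusted p = 0.0669). Its processed pseudogene PSMA6P1 was listed with 6, 28 and 44 reads in the sh-JMJD1C libraries and 8, 15 and 26 in the control-NC libraries, so reads may have been split between the copies. PSMA1 and PSMA5 had log2 fold changes of 0.64 and 0.81 on reads and were not called. PSMA2 did not pass the filters: it had 0, 1 and 3 reads in sh-JMJD1C libraries and 0, 7 and 21 in control-NC libraries. PSMA8, known from the testis, had 0 reads in every library, which allows up to 3 reads in each.

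In the beta ring, all 8 genes tested had a log2 fold change above 0 on reads, where 47.2% of all genes did, with a median of 1.68, and 4 were called. PSMB3, a ring subunit without a proteolytic site (chr17:38752736-38764231, plus strand, hg38), gave 121, 591 and 387 scaled RPM in sh-JMJD1C libraries 1 to 3, against 44.8, 58.1 and 31.5 in control-NC libraries 1 to 3. The lowest sh-JMJD1C library had more than every control-NC library, and the log2 fold change of 2.81 (SE 0.56, limma-voom adjusted p = 0.0226) was the highest of the proteasome genes tested. This equals a 7.01-fold level. With the length trend of all genes removed, as described below, the log2 fold change was 1.93, and with length and GC trends removed it was 1.60, and in both of these fits PSMA6 had the highest value (2.49 and 3.16).

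The proteolytic subunits had log2 fold changes above 0 on reads, and PSMB6 was called. PSMB6, which carries the caspase-like site, had 84, 317 and 249 scaled RPM in sh-JMJD1C libraries and 59.7, 32.9 and 23 in control-NC libraries, without overlap (log2 fold change 2.54, SE 0.54, limma-voom adjusted p = 0.0283). PSMB5, with the chymotrypsin-like site, had 48.8, 307 and 178 scaled RPM in sh-JMJD1C libraries and 19.2, 22.8 and 39.6 in control-NC libraries. Its groups did not overlap either, and the log2 fold change of 2.29 (SE 0.63) missed the threshold at a limma-voom adjusted p of 0.0534. PSMB7, with the trypsin-like site, had 269, 851 and 742 scaled RPM in sh-JMJD1C libraries and 192, 228 and 134 in control-NC libraries, a log2 fold change of 1.62 (SE 0.47, limma-voom adjusted p = 0.0594). In each of these genes sh-JMJD1C 1 was the lowest of its group.

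PSMB2, a structural subunit, was the exception among the called genes, since sh-JMJD1C 1 was its highest library. It had 180, 159.7 and 173 scaled RPM in sh-JMJD1C libraries 1 to 3, against 55.4, 74.8 and 61.3 in control-NC libraries 1 to 3. Its log2 fold change was 1.40 (SE 0.35, limma-voom adjusted p = 0.0411), and the spread within the sh-JMJD1C group, an SD of 10.3 around a mean of 171, was the smallest relative to its mean among the called genes. PSMB4 had 153, 508 and 422 scaled RPM in sh-JMJD1C libraries and 96, 102 and 89.7 in control-NC libraries, with a log2 fold change of 1.74 (SE 0.46) and a limma-voom adjusted p of 0.0498, just inside the threshold.

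PSMB10, the interferon-induced replacement for PSMB7, was weakly detected at 20, 25 and 11 reads in sh-JMJD1C libraries and 8, 13 and 10 in control-NC libraries, and its scaled levels overlapped. Its log2 fold change was 0.62 on FPKM and 1.50 on reads (SE 0.62, limma-voom adjusted p = 0.13). PSMB11, the thymus form, had 0 reads in every library. The other interferon-induced subunits, PSMB8 and PSMB9, are no members but replace PSMB5 and PSMB6. PSMB8 had 4.34, 19.4 and 22 scaled FPKM in sh-JMJD1C libraries and 1.15, 3.53 and 2.77 in control-NC libraries, and PSMB9 had 0.733, 6.8 and 5.48 in sh-JMJD1C libraries and 0, 0.457 and 0.19 in control-NC libraries. Neither overlapped between groups, and neither was called (limma-voom adjusted p of 0.0633 for PSMB8 and 0.088 for PSMB9).

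**Figure D3:**
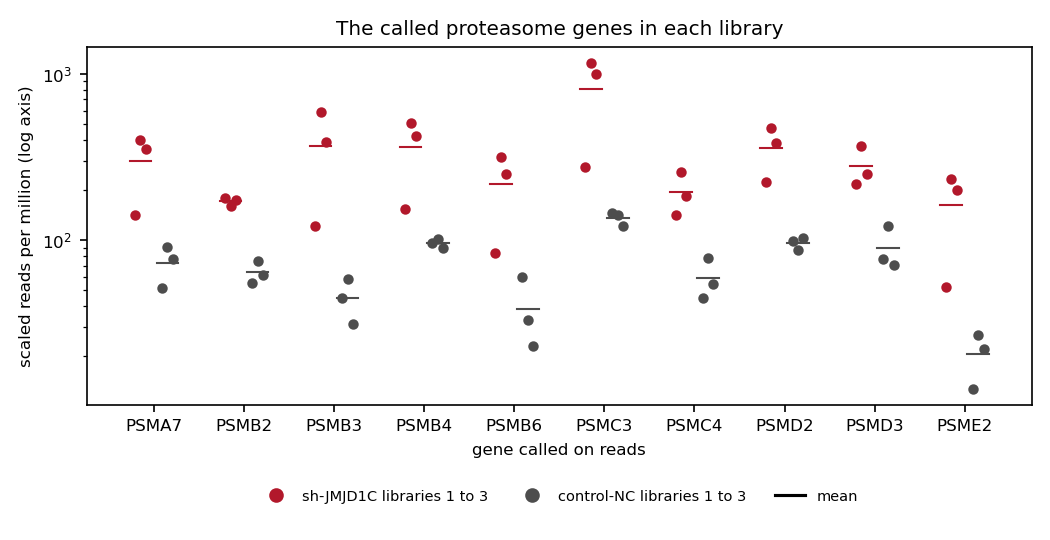
Scaled RPM (log axis) of the 10 genes called on reads, with 3 sh-JMJD1C libraries (red, left) and 3 control-NC libraries (grey, right) per gene in the order of their numbers and lines for the means. Every red point lies above every grey point of its gene, and the first red point is the lowest of its group in 9 of the 10 genes.

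Among the 6 base ATPases, 2 were called and the median log2 fold change on reads was 0.71. PSMC3 (chr11:47418769-47426473, minus strand, hg38) had 275, 1154 and 989 scaled RPM in sh-JMJD1C libraries 1 to 3, against 145, 141 and 121 in control-NC libraries 1 to 3. The control-NC libraries were close together and all sh-JMJD1C libraries lay above them (log2 fold change 2.34, SE 0.51, limma-voom adjusted p = 0.0298). PSMC4, another ATPase of the ring, had 142, 258 and 183 scaled RPM in sh-JMJD1C libraries and 44.8, 78.5 and 54.7 in control-NC libraries, a log2 fold change of 1.65 (SE 0.39, limma-voom adjusted p = 0.0376). The ring is built from equal numbers of each ATPase. PSMC1, PSMC2 and PSMC6 had log2 fold changes of 0.34, 0.30 and 0.30 on reads. PSMC5 lay between, at 1.07 (SE 0.37), without overlap and not called. The spread among the ATPases depended on the fit. With length and GC trends removed, as described below, the 6 genes ranged from 0.56 to 1.20 on reads, and 0 were called.

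The base and lid subunits named PSMD were as mixed. PSMD2, a large scaffold subunit that docks ubiquitin shuttle proteins, had 223, 474 and 381 scaled RPM in sh-JMJD1C libraries and 98.1, 86.6 and 103 in control-NC libraries. Its groups did not overlap (log2 fold change 1.84, SE 0.39, limma-voom adjusted p = 0.0276). PSMD3 of the lid had 217, 368 and 251 scaled RPM in sh-JMJD1C libraries and 76.8, 121 and 70.4 in control-NC libraries, with a log2 fold change of 1.63 (SE 0.39, limma-voom adjusted p = 0.0385). The ubiquitin receptor PSMD4 and the lid subunit PSMD8 had log2 fold changes of 1.64 and 1.71 and did not pass the threshold. PSMD13 of the lid had 34.1, 230.3 and 224 scaled RPM in sh-JMJD1C libraries, against 34.1, 27.7 and 31.3 in control-NC libraries, so that sh-JMJD1C 1 was level with the control-NC libraries and the other two were far above (log2 fold change 1.98, SE 0.67, limma-voom adjusted p = 0.0815).

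Some lid genes lay on the other side of 0, none of them called. PSMD6 had 19.3, 19.2 and 33 scaled RPM in sh-JMJD1C libraries and 38.4, 32.1 and 42.8 in control-NC libraries, a log2 fold change of -0.70 (SE 0.41) with a slight overlap. PSMD12 had 22.7, 14.4 and 45.6 scaled RPM in sh-JMJD1C libraries and 57.6, 15 and 82.3 in control-NC libraries, also -0.70 (SE 0.66) and with overlap. PSMD14, the lid enzyme that removes ubiquitin chains, had a log2 fold change of 0.51 (SE 0.62). The assembly chaperones of the base had log2 fold changes of -0.15 for PSMD5, 0.36 for PSMD9 and 0.06 for PSMD10. PSMD5 had 55.1, 31.5 and 63.9 scaled RPM in sh-JMJD1C libraries and 74.6, 35.4 and 64.5 in control-NC libraries. The sign of the low lid genes depended on the fit. With length and GC trends removed, as described below, PSMD6 and PSMD12 both had 0.18 on reads. All 8 lid genes lay above 0 in that fit.

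Of the activators, which cap the core particle in place of the regulatory particle, PSME2 was called. PSME2 and PSME1 form the interferon-inducible activator. PSME2 had 52.2, 233 and 199 scaled RPM in sh-JMJD1C libraries, against 12.8, 26.8 and 22.2 in control-NC libraries, a log2 fold change of 2.59 (SE 0.58, limma-voom adjusted p = 0.033). Its pseudogenes together held 75 reads in the sh-JMJD1C libraries and 14 in the control-NC libraries, beside 715 reads of the gene itself in the sh-JMJD1C libraries and 163 in the control-NC libraries. PSME1 had 52.8, 80.9 and 70.2 scaled RPM in sh-JMJD1C libraries and 38.4, 22.4 and 24.2 in control-NC libraries, without overlap and at a limma-voom adjusted p of 0.057 (log2 fold change 1.37, SE 0.39). PSME3, the activator of the nucleus, had a log2 fold change of 0.99 (SE 0.36) with no overlap, and the large nuclear activator PSME4 had -0.28 (SE 0.42) with overlap; neither was called.

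The inhibitor and the chaperones of core assembly gave no call. PSMF1 had a log2 fold change of 0.48 (SE 0.44). PSMG1 and PSMG2, which pair to build the alpha ring, had 0.30 and 0.39, and PSMG4 had 0.57. Its partner PSMG3 had 23.8, 192 and 159 scaled RPM in sh-JMJD1C libraries and 25.6, 35.4 and 42.8 in control-NC libraries, so that sh-JMJD1C 1 was below every control-NC library and the other two above (log2 fold change 1.31, SE 0.69, limma-voom adjusted p = 0.214). PSMC3IP and PSME3IP1, which were not counted as proteasome genes, had log2 fold changes of 0.52 and 0.06.

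Promoter windows from RefSeq (GRCh38.p14, 250 bases before to 50 after the annotated start) matched 42 of the 48 members, among them 8 of the 10 called genes. They were searched on both strands for the core of the antioxidant response element, TGACNNNGC, to which NFE2L1 is known to bind. It occurred in 4 of the 8 called genes, in 25.8% of 31 members tested and not called, and in 14.3% of the 15843 protein-coding windows. By particle, it occurred in 1 of 13 core windows (7.69%) and in 6 of 19 regulatory windows (31.6%). The 4 windows of called genes that hold it are shown because their genes were all called higher; capitals mark the element, and positions count from 0 at the start base. PSMB3 (chr17:38752491-38752790, plus strand) holds it at -104, PSMD3 (chr17:39980557-39980856, plus strand) at -37 and, on the other strand, at 33, PSME2 (chr14:24146561-24146860, minus strand) at -175, and PSMC4 (chr19:39970915-39971214, plus strand) at 27, on the other strand.
PSMB3: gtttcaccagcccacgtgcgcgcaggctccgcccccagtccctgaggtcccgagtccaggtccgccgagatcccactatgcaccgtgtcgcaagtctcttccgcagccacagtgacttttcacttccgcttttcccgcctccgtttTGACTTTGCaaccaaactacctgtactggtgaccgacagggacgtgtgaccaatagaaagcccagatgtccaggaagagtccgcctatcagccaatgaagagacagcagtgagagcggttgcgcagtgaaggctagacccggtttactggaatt
PSMD3: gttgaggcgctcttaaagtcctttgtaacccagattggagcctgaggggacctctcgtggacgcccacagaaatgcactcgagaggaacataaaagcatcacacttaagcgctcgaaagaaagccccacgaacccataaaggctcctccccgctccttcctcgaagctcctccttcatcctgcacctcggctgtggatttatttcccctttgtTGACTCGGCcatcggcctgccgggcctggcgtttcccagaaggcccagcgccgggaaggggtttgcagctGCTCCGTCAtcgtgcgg
PSME2: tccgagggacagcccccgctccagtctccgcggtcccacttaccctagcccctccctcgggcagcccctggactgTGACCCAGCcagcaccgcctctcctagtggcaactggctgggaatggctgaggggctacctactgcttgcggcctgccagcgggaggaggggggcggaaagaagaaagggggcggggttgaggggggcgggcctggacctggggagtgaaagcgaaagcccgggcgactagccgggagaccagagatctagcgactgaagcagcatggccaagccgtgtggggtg
PSMC4: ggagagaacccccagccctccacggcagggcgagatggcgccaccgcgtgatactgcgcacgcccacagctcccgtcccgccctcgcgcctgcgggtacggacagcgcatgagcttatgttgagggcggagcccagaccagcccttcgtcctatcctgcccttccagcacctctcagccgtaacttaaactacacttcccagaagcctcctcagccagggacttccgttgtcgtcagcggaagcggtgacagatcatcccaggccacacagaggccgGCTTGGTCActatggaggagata

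Other short motifs were counted in the same windows. The letters CCAAT were found in 47.6% of the 42 member windows and 36.4% of all windows, and PSMB3 holds a pair of them close to its start. The letters CCGGAAG, a site of ETS factors, were found in 33.3% of member windows and 14.2% of all, in 10 of 19 regulatory particle windows, in 1 of 13 core particle windows and in 0 of the 8 called genes. The letters TATAAA were in 11.9% of member windows and 9.63% of all. None of the 64 matches shared a base with a match to another motif, and a match is a run of letters, not a site shown to be bound.

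Core and regulatory particle were then compared as wholes. On reads, the 14 core genes tested had a median log2 fold change of 1.56, with 5 called, and the 20 regulatory genes had 0.60, with 4 called; on FPKM the medians were 1.23 and 0.47, against -0.16 over all genes. Of the 14 core genes 10 did not overlap between groups, and of the 20 regulatory genes 9, all of them higher in sh-JMJD1C libraries. Over all genes tested on reads, 17.3% did not overlap and were higher, and 3.71% were called higher. Leaving out the assembly chaperones PSMD5, PSMD9 and PSMD10, which is a choice made after seeing the data, gave a regulatory median of 1.03 on reads and 0.93 on FPKM. The gap between the particles was thus 0.96 on reads with the chaperones and 0.53 without them. Within the core, the median was 1.68 for the beta ring and 0.73 for the alpha ring.

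Per library, the gap did not set the groups apart. The summed core level was 1193, 3416 and 2995 scaled RPM in sh-JMJD1C libraries 1 to 3, against 712, 756 and 690.3 in control-NC libraries 1 to 3. The summed regulatory level was 1974, 4115 and 3710 in sh-JMJD1C libraries and 1258, 1208 and 1190 in control-NC libraries. For both sums, the lowest sh-JMJD1C library exceeded the highest control-NC library. The number of core reads per regulatory read was 0.604, 0.83 and 0.807 in sh-JMJD1C libraries and 0.566, 0.626 and 0.58 in control-NC libraries, and here sh-JMJD1C 1 fell within the control-NC range. The ratio averaged 0.747 ± 0.124 in sh-JMJD1C libraries and 0.591 ± 0.0315 in control-NC libraries (SD, n = 3 each).

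**Figure D4:**
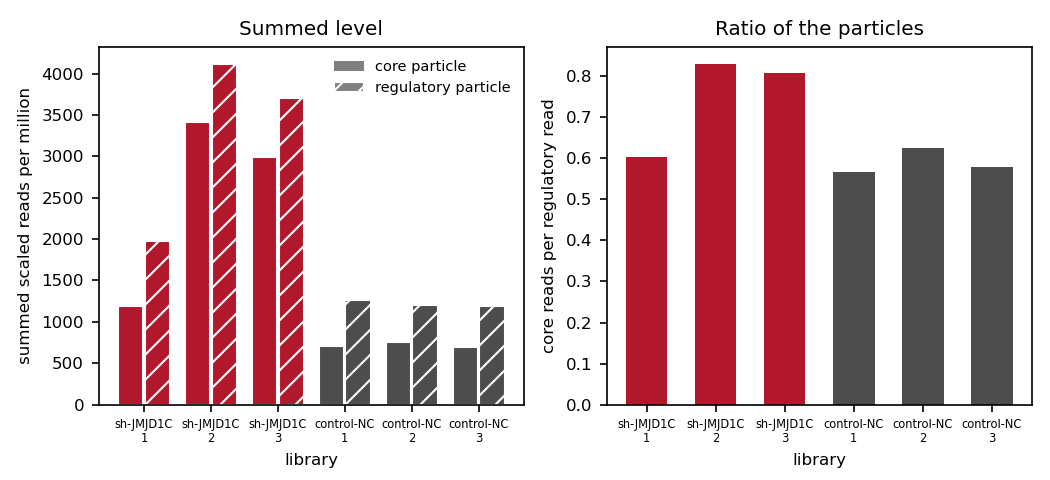
Left, summed scaled RPM of the core particle genes (plain bars) and the regulatory particle genes (hatched bars) in each library; right, core reads per regulatory read; sh-JMJD1C libraries are red and control-NC libraries grey. Both sums are higher in all sh-JMJD1C libraries, while the ratio of sh-JMJD1C 1, at 0.604, lies below that of control-NC 2, at 0.626.

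The ratio of beta to alpha ring reads was 3.24, 4.79 and 3.17 in sh-JMJD1C libraries and 2.75, 2.67 and 1.48 in control-NC libraries, without overlap. This ratio is of reads and is not corrected for length. Per kilobase of the longest annotated transcript, PSMB7 had the highest level, at 633 ± 316 scaled RPM per kilobase in sh-JMJD1C libraries and 189 ± 48.2 in control-NC libraries. Of the genes with reads, PSMA2 had the lowest, at 0.219 ± 0.253 in sh-JMJD1C libraries and 0.626 ± 0.605 in control-NC libraries (SD, n = 3 each). PSMC3 came second in both groups, at 510.1 ± 296 in sh-JMJD1C libraries and 85.9 ± 8.08 in control-NC libraries, and in the control-NC libraries PSMA7 followed at 71.2 ± 19.6, which overlaps with PSMC3 within its spread. In the sh-JMJD1C libraries PSMB3, at 474 ± 305, did not differ from PSMC3 beyond its spread.

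The fold changes varied with transcript length and GC content. Across the 43 genes, the log2 fold change on reads correlated with the log2 length of the longest transcript at a Pearson r of -0.51 (Spearman -0.47) and with GC content at 0.63 (Spearman 0.66); the genes share their libraries, so these are descriptions. Core genes are shorter, with a median longest transcript of 1410 bases against 2995 for the regulatory genes. Within the 20 regulatory genes the correlation with GC content was 0.80 (Spearman 0.84): PSMC3, at 56.2% GC, had 2.34, and PSMD12, at 37.9% GC, had -0.70. PSMA6, a gene of low GC content and long transcripts, went against both relations. The log2 fold change also correlated with the level of a gene, its mean log2 scaled RPM. Pearson r was 0.45 (Spearman 0.51) over the 43 genes and 0.73 (Spearman 0.76) within the 20 regulatory genes. With length and GC trends removed, as described below, it was 0.28 (Spearman 0.41) and 0.38 (Spearman 0.40).

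**Figure D5:**
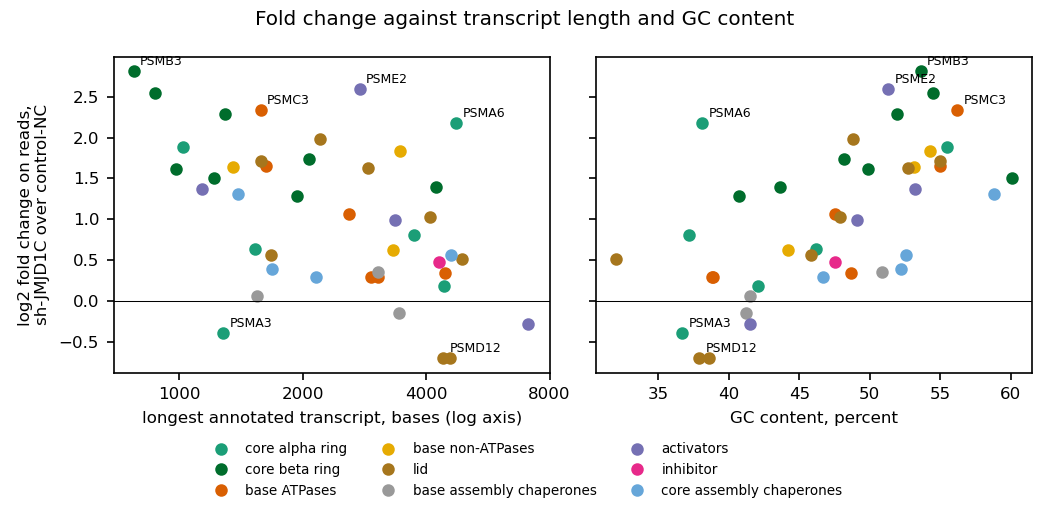
Log2 fold change on reads (sh-JMJD1C over control-NC) of the 43 proteasome genes tested against the longest annotated transcript in bases (left, log axis) and against GC content in percent (right), with colours for subcomplexes and 6 genes named. Short and GC-rich genes such as PSMB3 and PSMC3 lie at the top, PSMD12 at the bottom, and PSMA6 stands apart on both sides.

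With the length trend of all genes removed from each library, the core median on reads was 0.99 and the regulatory median 0.74, a gap of 0.25, and 6 genes were called, against 2.34% of all genes called higher. With the trends over length and GC content both removed, the medians were 1.27 and 0.71, a gap of 0.55, and 10 genes were called, against 3.65% of all genes. On FPKM, removal of the length trend left the gap at 0.73, against 0.76 without removal (core median 1.34, regulatory median 0.61). PSMB2, PSMB3, PSMD2, PSMD3 and PSME2 were called in both of these fits and in the one without removal. PSMA5, PSMA6, PSMB1, PSMD11 and PSMD14 were called with length and GC removed but not without removal, and PSMA7, PSMB4, PSMB6 and PSMC4 were called without removal alone. Their log2 fold changes with length and GC removed were 0.63 for PSMA7, 1.26 for PSMB4, 1.29 for PSMB6 and 0.58 for PSMC4. PSMC3, called with the length trend removed at 1.65, had 1.20 with length and GC removed and was not called then. Without both libraries numbered 1, 15 genes were called, 8 of the 10 named above among them, against 7.39% of all genes called higher.

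Of 10 proteasome genes without a PSM symbol, 0 were called in either direction. Their median log2 fold change on reads was -0.30, with 3 genes above 0 and 7 below. This direction depended on the fit: with length and GC trends removed the median was 0.32, with 7 genes above 0 and 3 below. The ubiquitin receptor ADRM1 came closest to a call, at 183, 338 and 213 scaled RPM in sh-JMJD1C libraries (mean 245 ± 82.1). Its mean was 80.7 ± 39.2 in control-NC libraries (SD, n = 3 each), with a limma-voom adjusted p of 0.0504. ECPAS went the other way without overlap, with a log2 fold change on reads of -1.28 (SE 0.44, limma-voom adjusted p = 0.0855). With length and GC trends removed, ECPAS had -0.41 and ADRM1 0.45. In the NFE2L1 pathway, 1 of 7 genes was called higher and 1 lower, beside 3.71% and 1.81% of all genes. VCP, the ATPase that extracts proteins from membranes, had 25.6, 32.6 and 25.1 scaled FPKM in sh-JMJD1C libraries and 10, 11.5 and 11.6 in control-NC libraries (log2 fold change on reads 1.37, SE 0.34, limma-voom adjusted p = 0.0432). SEL1L, of the ubiquitin ligase complex of the endoplasmic reticulum, had 3.14, 1.09 and 2.33 in sh-JMJD1C libraries and 12.5, 9.09 and 15.1 in control-NC libraries (log2 fold change on reads -2.49, SE 0.45, limma-voom adjusted p = 0.018). Neither pair of groups overlapped.

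NFE2L1 itself had 4.26, 3.56 and 3.05 scaled FPKM in sh-JMJD1C libraries and 7.94, 8.53 and 5.26 in control-NC libraries. It was lower in every sh-JMJD1C library without being called (log2 fold change on reads -0.93, SE 0.37, limma-voom adjusted p = 0.119). With length and GC trends removed it was called lower, at -1.05 (limma-voom adjusted p = 0.0496), as were SYVN1, a ubiquitin ligase of the endoplasmic reticulum, at -1.61 and SEL1L at -1.22, which makes 3 of the 7 genes, against 3.1% of all genes called lower in that fit. Of the 6 genes for ubiquitin and its activating enzymes 0 were called. Of the 5 shuttle factors 0 were called. As complexes for comparison, the COP9 signalosome, whose subunits are related to the lid, had 0 of 9 genes called and a median log2 fold change on reads of 0.20. The CCT chaperonin, a ring-shaped folding machine, had 1 of 8 called, CCT7 at 2.32 (limma-voom adjusted p = 0.0226), and a median of 0.67. In that fit on reads, without removal of trends, 3.71% of all genes were called higher and 1.81% lower. Groups did not overlap for 2 of the 9 COP9 genes and 4 of the 8 CCT genes, all higher, against 17.3% of all genes. COPS6, GPS1 and CCT3 came close to a call, at limma-voom adjusted p of 0.0546, 0.0568 and 0.0549.

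Some values carry limits of annotation. The use of strand in counting is not given in the sources used here, so reads of overlapping genes cannot be told apart. Of the exonic bases of PSMC1, 75.8% overlap exons of another gene on either strand, as do 34.8% of PSMB10 and 24.7% of PSMA1. The 10 called genes overlap other exons little, at most 8.18% (PSME2).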

How the data were processed

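RNA was measured in 6 libraries of LN-229 cells, 3 labelled sh-JMJD1C and 3 labelled control-NC. The authors deposited FPKM (fragments scaled to gene length and library total) for 58174 Ensembl genes per library, and per the file headers each table repeats them for rising shares of the reads. Only the last column, which is the full library, was used. The submitters' processing notes name Bowtie 0.12.2 and hg38. How reads were counted, with which annotation and with or without strand, is not given in the sources used here. Symbols, biotypes and gene positions come from GENCODE release 29 and a gene name table, and the promoter windows from RefSeq.

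The length behind the deposited FPKM equals the summed length of all GENCODE transcripts for 93.67% of the 29280 genes above 0, and otherwise the smallest length that made the values whole was taken. Whole reads were recovered on that basis, and below 1000 reads 100.0% of the values came within 0.05 of a whole number, in part by the choice of length. Since a gene with many transcripts has a low FPKM by this length, levels are compared between genes only per kilobase of the longest transcript. Where a gene has a count of 0, up to 3 reads are allowed for: 1.79, 1.56 and 1.81 RPM in sh-JMJD1C libraries 1 to 3 and 5.51, 1.5 and 1.01 RPM in control-NC libraries 1 to 3. Intervals and floors cover counting error only.

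The main test was limma 3.58.1 in R 4.3.3 on log2(FPKM divided by a median-ratio factor + 0.5), with genes at a mean FPKM of at least 0.5 (18383 genes), two-sided, with Benjamini-Hochberg adjustment over all genes and a threshold of 0.05. Its fold changes understate those of low genes. The second test was limma-voom on recovered reads with median-ratio scaling, for 11877 genes with at least 60 reads in all. Both were tested on simulated data. Lowess trends (span 0.3) over the longest transcript, and over GC content as well, were removed in alternatives. Other alternatives changed the scaling, pseudocount, filter, genes tested and weights, left out libraries, or added the replicate number. The members, lists, tests and alternatives were chosen with earlier results of these data known. Genes named are JMJD1C, every called member, the 3 highest and 3 lowest of each particle on FPKM, the catalytic subunits, PSMB10, all PSME, PSMF and PSMG genes and the members not tested; other members were named after their values were seen.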

Additional observations from a re-analysis of the deposited data

How the results depend on the processing

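Scaling shifts all genes. The median log2 fold change of all genes was -0.16 on FPKM as scaled and -0.38 on FPKM as deposited, and on reads it was -0.08 as scaled and -0.52 with library totals. Relative to that median the core particle stood at 1.65 and the regulatory particle at 0.68 on scaled reads, and at 1.65 and 0.71 with library totals. Of the genes called on reads 67.2% were higher, against 26% with library totals, 52.3% with quantile normalization and 88.2% without both libraries numbered 1; on FPKM 32.4% were higher, against 51.7% with array weights and 59.6% among protein-coding genes.

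On FPKM 34 genes were called. The number was 79 as deposited, 2 with quantile normalization, 84 with a pseudocount of 0.1, 911 among protein-coding genes, 118 with array weights, 656 on recovered reads, and 0 with a pseudocount of 1, with no filter, with the length trend removed, or without both libraries numbered 1. Leaving out 1 library gave 0 to 692. Members called higher numbered 0 on FPKM, 11 among protein-coding genes, 10 on recovered reads and 0 to 12 with 1 library left out; under the other FPKM alternatives none was called in either direction. The protein-coding alternative tests fewer genes and also fits the variance trend on those genes alone. The cause of the differences was not tested for any alternative. The JMJD1C change of -1.82 passed the threshold among protein-coding genes (-1.82) and on recovered reads (-2.49). On recovered reads with length and GC trends removed it did not (-1.20).

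On recovered reads 656 genes were called, against 1195 with library totals, 1020 with quantile normalization, 406 with the length trend removed and 31 to 2305 with 1 library left out. Members called higher numbered 10, against 6 with library totals, 6 with the length trend removed and 0 to 23 with 1 library left out; no member was called lower in any of them. The regulatory median of 0.60 was 0.19 with library totals, 1.03 without PSMD5, PSMD9 and PSMD10 and 0.42 to 0.90 with 1 library left out. The gap between core and regulatory medians of 0.96 was 0.25 with the length trend removed, 0.55 with length and GC trends removed and 0.40 to 1.36 with 1 library left out. On FPKM the regulatory median of 0.47 was 0.93 without PSMD5, PSMD9 and PSMD10, and the gap of 0.76 was then 0.30, 0.36 with quantile normalization and 0.73 with the length trend removed.

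The replicate number as a block called 0 genes on FPKM, and on reads 4260 genes and 23 members, all higher. Deviations of same-numbered libraries correlated at 0.009, 0.14 and 0.22 for numbers 1, 2 and 3. For sh-JMJD1C 2 and 3 the same-numbered library gave the highest correlation with any control-NC library. However, sh-JMJD1C 1 correlated better with control-NC 2, at 0.124, so the numbers are not taken as pairs.

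Some members changed sign, none of them among the 10 called on reads. Most lay near 0, but PSMD6 and PSMD12 started from -0.70 on reads. On FPKM as deposited PSMA4 had -0.19, PSMC1 -0.06, PSMD10 -0.10, PSMD9 -0.07, PSMC2 -0.04 and PSMG1 -0.05. With quantile normalization PSMC6 had 0.43, PSMA3 0.07, PSMD7 -0.04 and PSME3IP1 0.01, and on reads PSME3IP1 had -0.17. With a pseudocount of 0.1 PSMC6 had 0.04, and with array weights PSMC6 had 0.07, PSMA3 0.05 and PSME3IP1 0.02. In place of FPKM, reads gave PSMC6 0.30 and PSME3IP1 0.06. Without both libraries numbered 1 PSMC6 had 0.14 and PSMD10 -0.20, and on reads PSMD10 had -0.10. With library totals PSMA4 had -0.25, PSMC6 -0.20, PSMC1 -0.09, PSMD10 -0.34, PSMD9 -0.17, PSMC2 -0.09, PSME3IP1 -0.33 and PSMG1 -0.11. With the length trend removed PSME4 had 0.18 and PSMD10 -0.08 on FPKM, and on reads PSME4 had 0.35, PSMD10 -0.64, PSMD7 -0.08, PSMG2 -0.25, PSMA1 -0.06, PSMC3IP -0.23, PSME3IP1 -0.08 and PSMG1 -0.13. With length and GC trends removed PSME4 had 0.82, PSMD5 0.38, PSMD10 -0.16, PSMG2 -0.51, PSMC3IP -0.31, PSMD6 0.18, PSMG1 -0.03 and PSMD12 0.18.

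With 1 library left out the FPKM values ran from -0.38 to 0.36 for PSMA4, -0.06 to 0.69 for PSMA1, -0.38 to 0.82 for PSMG1, -0.55 to 0.10 for PSMD5, -0.41 to 0.26 for PSMC6, -0.53 to 0.42 for PSMA3, -0.12 to 0.19 for PSME3IP1, -0.17 to 0.44 for PSMD10 and -0.04 to 0.28 for PSMD9. On reads they ran from -0.39 to 0.51 for PSMA4, -0.51 to 0.95 for PSMC6, -0.09 to 0.29 for PSMD10, -0.22 to 1.48 for PSMD14, -0.65 to 1.20 for PSMA1, -0.38 to 0.96 for PSMG1, -0.08 to 0.24 for PSME3IP1, -0.52 to 0.20 for PSMD5, -0.89 to 0.18 for PSMA3 and -0.01 to 0.87 for PSMF1. PSMD14, whose sign changed here, was called on reads with length and GC trends removed, at 1.71 (limma-voom adjusted p = 0.0239). Counts behind the values of such genes can be low: PSMA1 had 2 reads in control-NC 1 and in control-NC 2.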
